A study of Homo sapiens with 2 samples.

Results

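The miR-193 and miR-365 hairpins lie side by side at 2 places in the human genome, and their mature products were followed here in a breast cancer subline after LOC550643 knockdown. The products were taken by name, as every listed miRNA with the stem miR-193a, miR-193b, miR-365a, miR-365b or miR-365, from either arm of its hairpin. This gave 7 of the 425 miRNAs listed in either library, 6 of the 376 in control cells and 7 of the 375 in knockdown cells. The 4 hairpins have 8 annotated mature products, and the eighth, miR-193a-3p, is listed in neither library and was taken as 0. Small RNA came from MDA-MB-231-IV2-1 cells, a highly metastatic subline that the authors isolated through mice from MDA-MB-231, a human triple-negative breast cancer cell line. Both groups are the same subline, without any other allele or drug named in the labels, and RNA was taken 48 h after transfection. The control cells received a scrambled siRNA (N.C), and the knockdown cells received a pool of siRNAs against LOC550643, a long non-coding RNA. Each group is 1 library from 1 subline, so differences between them rest on no replicates and are given without p-values. The level of LOC550643 in these cells was not analysed here, since the tables hold mature miRNAs only.

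A miRNA gene is transcribed as a long precursor that folds into a hairpin, and the hairpin is cut into a duplex of a 5p and a 3p strand. As a rule 1 strand is kept in the Argonaute protein, where its seed, the stretch near the 5′ end, pairs with messenger RNAs and lowers their output. The miR-193b-365a cluster is known from brown fat differentiation, and miR-193a and miR-193b are best known as growth-restraining miRNAs, with the urokinase gene PLAU among the breast cancer targets of miR-193b and the receptor gene KIT among those of the miR-193 family. The 3p strand carries most of the described targets of both families.

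All 8 products matched a RefSeq entry (GRCh38.p14), and every hairpin is on the plus strand. MIR193B lies on chromosome 16 from 14303967 to 14304049, and MIR365A follows at 14309285 to 14309371, with 5235 bases between them. Both are inside introns of the long non-coding host gene MIR193BHG in GENCODE 29, where 4 transcripts span each hairpin and no exon touches it. MIR193A lies on chromosome 17 from 31559996 to 31560083, and MIR365B at 31575411 to 31575521, with 15327 bases between them. No GENCODE 29 gene other than the miRNA gene itself covers MIR193A, whereas MIR365B lies in an exon of the long non-coding gene AC003101.1 and inside the RefSeq gene MIR365BHG.

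**Figure D1:**
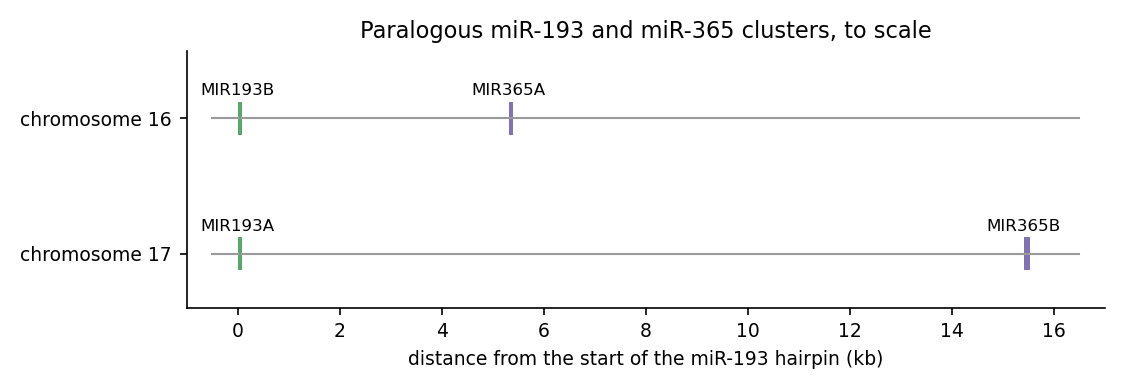
Map of the paralogous clusters, drawn to scale as the distance in kb from the start of the miR-193 hairpin (x axis), with 1 row for each chromosome; boxes are the hairpins. The hairpins of the chromosome 16 pair are 5235 bases apart and those of the chromosome 17 pair 15327 bases apart.

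The 4 hairpins are shown because both arms and the likeness between the copies decide which reads can be told apart. Capitals mark the mature 5p arm, on the left, and the mature 3p arm, on the right, written 5′ to 3′.
MIR193B: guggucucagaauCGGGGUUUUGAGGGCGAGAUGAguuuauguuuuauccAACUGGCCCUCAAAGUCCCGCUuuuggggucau
MIR193A: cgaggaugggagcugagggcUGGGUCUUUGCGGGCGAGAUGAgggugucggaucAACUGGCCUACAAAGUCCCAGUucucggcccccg
MIR365A: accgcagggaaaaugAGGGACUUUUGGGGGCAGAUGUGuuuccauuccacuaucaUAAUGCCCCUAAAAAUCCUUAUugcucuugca
MIR365B: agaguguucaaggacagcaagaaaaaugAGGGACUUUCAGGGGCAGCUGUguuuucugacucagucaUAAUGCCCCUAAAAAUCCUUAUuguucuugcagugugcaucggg

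The mature products fall into groups by their seed, bases 2 to 8, which is in capitals here. The 3p products of miR-193 share the seed ACUGGCC, and no other listed miRNA with a RefSeq sequence has it.
miR-193b-3p: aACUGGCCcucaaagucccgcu
miR-193a-3p: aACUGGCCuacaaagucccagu
They are identical at 18 of 22 positions and differ, from miR-193a-3p to miR-193b-3p and counted from 1 at the 5′ end, by U9C, A10U, A20G and G21C, all outside the seed. The 3p products of miR-365 share the seed AAUGCCC and are identical at all 22 positions, so a read of this sequence cannot be assigned to either hairpin.
miR-365a-3p: uAAUGCCCcuaaaaauccuuau
miR-365b-3p: uAAUGCCCcuaaaaauccuuau
The 5p products of miR-365 share the seed GGGACUU and differ by U10C, G11A and A19C, from miR-365a-5p to miR-365b-5p, and by 1 base in length.
miR-365a-5p: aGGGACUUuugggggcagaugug
miR-365b-5p: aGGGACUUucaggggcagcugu
The 5p products of miR-193 differ inside the seed at 2 of their 4 differences, which from miR-193a-5p to miR-193b-5p are U1C, U5G, C6U and C11A.
miR-193a-5p: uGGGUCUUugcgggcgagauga
miR-193b-5p: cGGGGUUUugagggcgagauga

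The deposited values are RPM (reads scaled to a common total of the reads assigned to mature miRNAs). The RPM values of each library lie on steps worth 1 read, 5.29 RPM in control cells and 2.03 RPM in knockdown cells, which gives about 189034 and 491541 reads. A level of 3 reads, 15.9 RPM in control cells and 6.1 RPM in knockdown cells, was taken as the floor below which no level is resolved. All intervals are 95% Clopper-Pearson intervals of the reads, or of the share of the knockdown reads for a ratio, and cover counting error only. Of the miR-200 family, which marks epithelial cells, miR-200a-3p, miR-141-3p and miR-429 are listed in neither library miR-200c-3p had 1 read or less in each and miR-200b-3p at most 4 reads, while miR-222-3p, abundant in mesenchymal breast cancer lines, was at 6232 and 5096 RPM.

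The miR-193 and miR-365 products were rare in both libraries. Their summed level was 84.6 RPM in control cells (16 reads, interval 48.4 to 137 RPM) and 77.3 RPM in knockdown cells (38 reads, 54.7 to 106 RPM), less than 0.01% of the miRNA reads in each. The knockdown to control ratio of the sum was 0.913, with an interval of 0.497 to 1.75. A difference of the summed level was therefore not detectable at this depth. The highest single value as listed in either library was 21.2 RPM, which stood at rank 191 of 376 in control cells. It belongs to both miR-365a-3p and miR-365b-3p, which are 1 sequence and sum to 42.3 RPM there.

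Among the 3p products of miR-193, the strands with the seed ACUGGCC, miR-193b-3p was listed in both libraries and miR-193a-3p in neither. The value of miR-193b-3p was 15.9 RPM in control cells (3 reads, interval 3.27 to 46.4 RPM). In the knockdown library it was 18.3 RPM (9 reads, 8.37 to 34.8 RPM). The ratio of 1.15 had an interval of 0.288 to 6.63, and the intervals of both libraries overlapped. For miR-193a-3p, 0 of 189034 control reads allows a level of up to 15.9 RPM by the 3-read floor, and 0 of 491541 knockdown reads allows up to 6.1 RPM, while the upper ends of the Clopper-Pearson intervals, which are wider because they are 2-sided, were 19.5 and 7.5 RPM. In the knockdown library, but not in control cells, the Clopper-Pearson interval of miR-193b-3p lay above that of miR-193a-3p. All 9 knockdown reads and all 3 control reads with this seed thus carried the miR-193b sequence, a share with an interval starting at 66.4% in knockdown cells and at 29.2% in control cells.

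The 5p products of miR-193, which have different seeds, were at the same value of 10.6 RPM in control cells, with 2 reads each (interval 1.28 to 38.2 RPM). In the knockdown library miR-193a-5p was at 8.14 RPM (4 reads, 2.22 to 20.8 RPM) and miR-193b-5p at 4.07 RPM (2 reads, 0.493 to 14.7 RPM). Both values were lower than in control cells and both intervals overlapped it widely. The ratio of miR-193a-5p was 0.769, with an interval of 0.11 to 8.5. With 2 reads in each library miR-193b-5p did not leave the floor, and no ratio is given for it.

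The 3p products of miR-365, which share 1 sequence, are listed with equal values, each at 21.2 RPM in control cells (4 reads) and each at 10.2 RPM in knockdown cells (5 reads). Equal values would follow both from dividing the shared reads between the hairpins and from counting every read at each. The only other pair of listed miRNAs with identical RefSeq sequences, miR-199a-3p and miR-199b-3p, comes from 2 hairpins and 1 hairpin, and its values stood at a ratio of 1.99 in control cells and 2.01 in knockdown cells. Among the values of up to 20 reads, 11 of 253 control values and 13 of 224 knockdown values lay at 0.5 of a read beyond a whole number, and 4 in each library at 0.33 or 0.67 (within 0.05 of a read). Summed over the hairpins, miR-365-3p amounted to 42.3 RPM in control cells (8 reads, interval 18.3 to 83.4 RPM) and fewer, 20.3 RPM, in knockdown cells (10 reads, 9.76 to 37.4 RPM). The ratio was 0.481, with an interval of 0.171 to 1.4, or of 0.103 to 2.42 if the reads were counted at each hairpin. The knockdown value was the lower one, and the intervals overlapped.

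The 5p products of miR-365 were higher in value after knockdown. The value of miR-365a-5p was 5.29 RPM in control cells (1 read, interval 0.134 to 29.5 RPM) and 20.3 RPM in knockdown cells (10 reads, 9.76 to 37.4 RPM). Product by product as listed, miR-365a-5p had the highest value of the 8 in knockdown cells, at rank 197 of 375, and the lowest of the 6 listed in control cells. The summed miR-365-3p sequence had the same 10 reads in knockdown cells, and the interval of miR-365a-5p overlapped that of every product but miR-193a-3p. The knockdown to control ratio of miR-365a-5p, 3.85, had an interval of 0.547 to 167, which includes 1. No read of miR-365b-5p was counted in control cells, and 3 were counted in knockdown cells (6.1 RPM, 1.26 to 17.8 RPM), which is at the floor in both. The 2 products together went from 1 read to 13 reads, a ratio of 5 with an interval of 0.751 to 212.

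**Figure D2:**
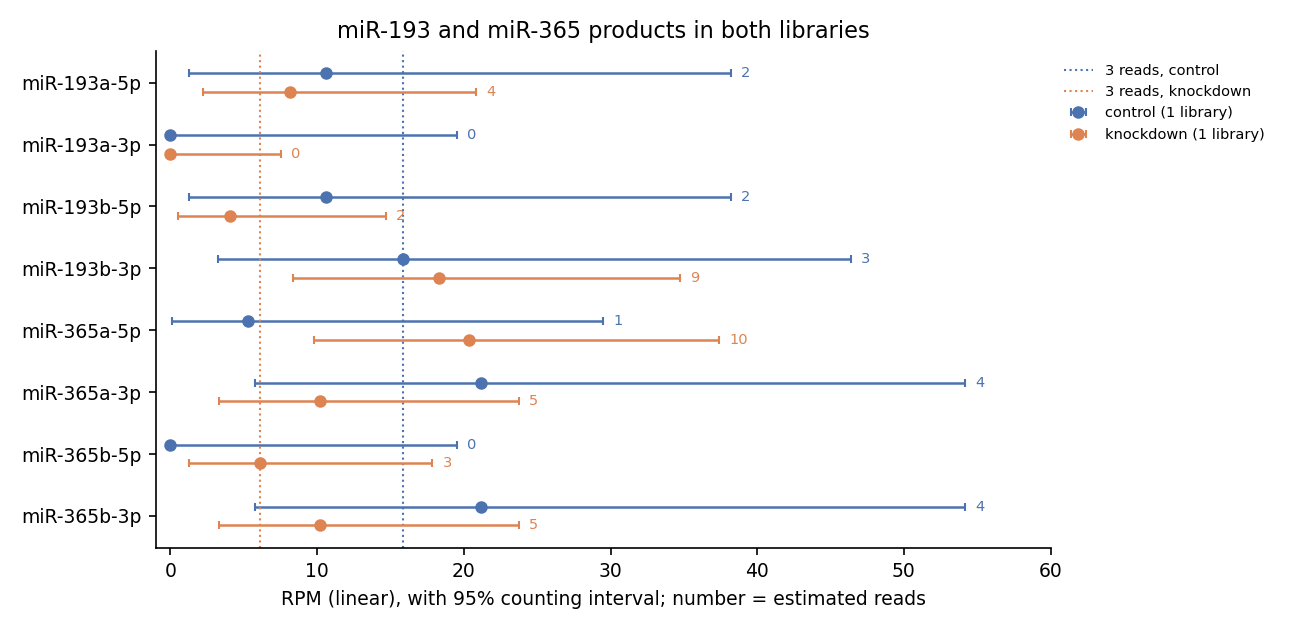
RPM (x axis, linear) of the 8 products (y axis) in the control and knockdown library, 1 library each. Points are deposited values, with 0 for a product that is not listed, bars are 95% Clopper-Pearson counting intervals, numbers are estimated reads and dotted lines mark 3 reads (15.9 and 6.1 RPM). The intervals of the libraries overlap for every product.

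Set in order, the control values ran from miR-365a-3p and miR-365b-3p at 21.2 RPM over miR-193b-3p at 15.9 RPM and miR-193a-5p and miR-193b-5p at 10.6 RPM to miR-365a-5p at 5.29 RPM, with miR-365b-5p and miR-193a-3p at 0. None of the 28 pairs of products had intervals apart from each other in control cells, so this order is not resolved. In the knockdown library the order was miR-365a-5p at 20.3 RPM, miR-193b-3p at 18.3 RPM, miR-365a-3p and miR-365b-3p at 10.2 RPM, miR-193a-5p at 8.14 RPM, miR-365b-5p at 6.1 RPM and miR-193b-5p at 4.07 RPM, with miR-193a-3p at 0. Of its 28 pairs, 2 had intervals apart, those of miR-193a-3p with miR-365a-5p and with miR-193b-3p. These pairs take miR-365a-3p and miR-365b-3p as listed, although they are 1 sequence. If its reads were divided between the hairpins, its sum of 10 knockdown reads (9.76 to 37.4 RPM) also lay above miR-193a-3p (up to 7.5 RPM). As listed, miR-193b-3p had the highest mean of the products, while the summed miR-365-3p sequence was higher in both libraries, at 42.3 and 20.3 RPM. The listed miRNAs nearest to miR-193b-3p were found by the distance of their log2(RPM + 1) values over the 2 libraries. They were miR-181b-3p at a distance of 0, with 15.9 and 18.3 RPM, miR-16-2-3p at 0.14 and miR-19a-3p at 0.27.

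Counted by fold change as a difference of log2(RPM + 1) values, a scale on which changes at low values come out too small, 2 of the 7 listed products were more than 2-fold higher in knockdown cells and 1 was more than 2-fold lower. Over all 425 miRNAs, 17.9% were higher by more than 2-fold and 27.3% lower by as much. Among the 142 miRNAs whose mean RPM lay within the range of these products, 24.6% were higher and 34.5% lower. Nothing is read from counts of 2 and 1 out of 7 beside shares of this size. The higher products were miR-365a-5p (log2 fold change 1.76) and miR-365b-5p, and the lower one was miR-193b-5p, the last pair having at most 3 reads in both libraries. Of the others, miR-365a-3p and miR-365b-3p were just short of 2-fold lower, at a log2 fold change of -0.99, miR-193a-5p was at -0.34 and miR-193b-3p at 0.20. The median log2 fold change of the 7 products was -0.34, beside -0.20 over all miRNAs. No ratio of a product with more than 3 reads in a library had an interval that excluded 1.

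**Figure D3:**
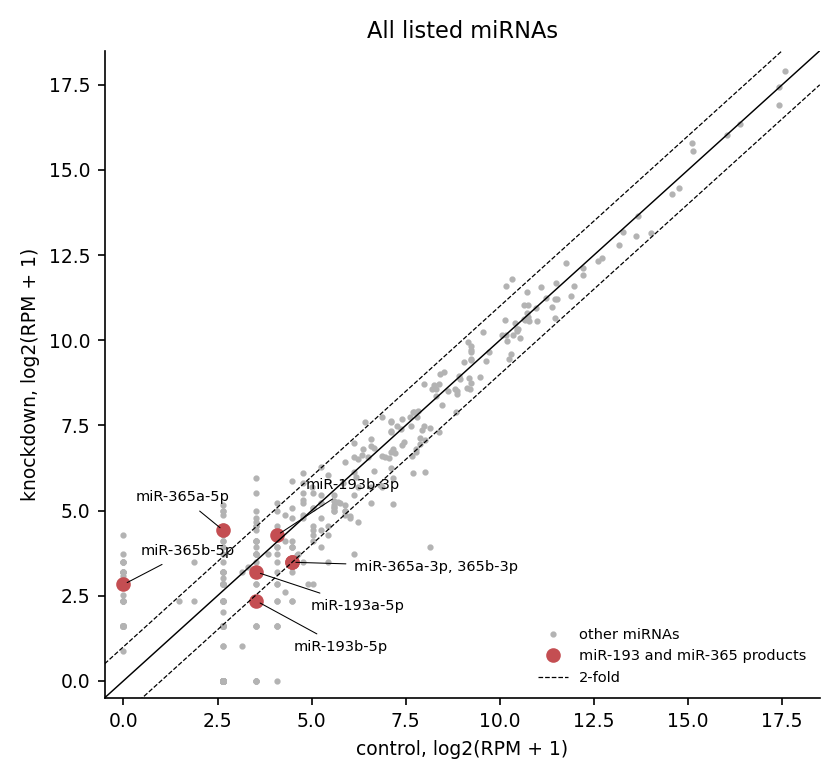
Control (x axis) against knockdown (y axis) level of all 425 listed miRNAs as log2(RPM + 1), 1 library each, with the 7 listed miR-193 and miR-365 products in red; the solid line marks equal values and the dashed lines 2-fold. The products lie at the low end, where other miRNAs spread to both sides beyond 2-fold.

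The arm ratios within a library do not depend on the scaling between libraries. For miR-193b the 3p strand had the higher value in both libraries, with a 3p to 5p ratio of 1.5 in control cells and 4.5 in knockdown cells. The 3p strand took 3 of 5 reads in control cells (interval of the share 14.7 to 94.7%) and 9 of 11 reads in knockdown cells (81.8%, 48.2 to 97.7%). Neither interval excludes an equal share of both strands, and a difference between the libraries was not detectable. For miR-193a only the 5p strand was listed, and the 3p share was 0 of 2 reads in control cells and 0 of 4 reads in knockdown cells, with intervals reaching up to 84.2% and 60.2%. The 3p share of miR-193a therefore had an interval that overlapped that of miR-193b in each library.

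Summed over both hairpins, the 3p share of miR-365 was 88.9% in control cells (8 of 9 reads, interval 51.8 to 99.7%) and 43.5% in knockdown cells (10 of 23 reads, 23.2 to 65.5%). The interval in knockdown cells includes an equal share of both strands, and the intervals of the libraries overlapped between 51.8% and 65.5%. With the reads of miR-365a as listed, the shares were 80.0% (4 of 5 reads, 28.4 to 99.5%) and 33.3% (5 of 15 reads, 11.8 to 61.6%). For comparison, 58 hairpins had both arms listed and more than 20 reads over the arms in each library. Their 3p share differed between the libraries by a median of 1.09 percentage points and by at most 23.7, and 3 of the 58 differed by more than 20. Another 25 hairpins outside the miR-193 and miR-365 families had 20 reads or fewer in a library. There the median difference was 18.3 points, the largest was 100, and 11 of the 25 differed by more than 20. The differences of 45.4 points for miR-365 and 21.8 points for miR-193b rest on 9 and 23 reads and on 5 and 11 reads. The 100 points, the most that a share can change, came from miR-301a, miR-33b and miR-551b, each with 1 control read over the arms. Next among the hairpins with few reads was miR-339, whose 3p share went from 100% to 62.5%. The difference of miR-365 was larger than that of miR-339, and that of miR-193b was smaller and also below 23.7. Whether the differences of miR-365 and miR-193b are unusual was not tested.

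**Figure D4:**
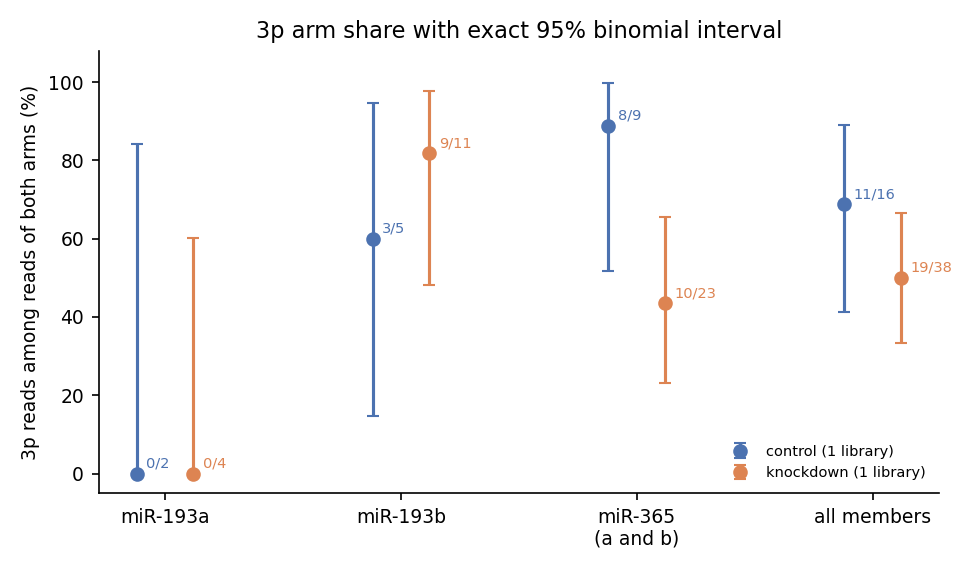
Share of the 3p strand among the reads of both arms (y axis, percent) for miR-193a, miR-193b, miR-365 with both hairpins summed, and all 8 products, in the control and knockdown library, 1 library each; bars are exact 95% binomial intervals and labels give 3p reads over all reads. The share of miR-365 goes from 8 of 9 to 10 of 23 reads, and the intervals of the libraries overlap for every group.

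Taken by place in the genome, the chromosome 16 products, with miR-365-3p as listed, summed to 52.9 RPM in both libraries, from 10 reads and 26 reads (ratio 1, interval 0.467 to 2.32). The chromosome 17 products summed to 31.7 RPM in control cells (6 reads) and 24.4 RPM in knockdown cells (12 reads), a ratio of 0.769 with an interval of 0.267 to 2.5. The direction of the chromosome 17 ratio rests on the miR-365-3p sequence shared by both places: without it, the ratio was 1.35 for chromosome 17 (interval 0.256 to 13.3) and 1.35 for chromosome 16 (0.525 to 4.08). Without it, chromosome 16 held 6 of 8 reads in control cells and 21 of 28 in knockdown cells, an equal share, with intervals of 34.9 to 96.8% and 55.1 to 89.3%. The miR-23, miR-27 and miR-24 clusters are also present at 2 places in the genome. For miR-23-3p and miR-27-3p the ratios between the copies were resolved far more finely, and for miR-24 no ratio was computed. The miR-23a-3p share of the miR-23-3p reads was 44.7% in control cells, from 228 reads against 282 of miR-23b-3p (40.3 to 49.1%). In knockdown cells it was 39.6%, from 345 against 526 (36.3 to 42.9%). The miR-27a-3p share of the miR-27-3p reads went the other way, from 4.59% (3.90 to 5.36%) in control cells to 6.91% (6.21 to 7.67%) in knockdown cells.

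The seeds were also searched in the LOC550643 isoforms, as matches to the RNA strand only. The letters searched were GGCCAGT for miR-193-3p, GGGCATT for miR-365-3p, AAGTCCC for miR-365-5p, AAGACCC for miR-193a-5p and AAACCCC for miR-193b-5p. None occurs in isoform V1, V2 or V3, and neither does the match to bases 2 to 7 of any of the 8 products. Of the 350 listed miRNAs with a RefSeq sequence, 21 (6%) had a match to bases 2 to 8 in an isoform and 58 (16.6%) a match to bases 2 to 7.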

How the data were processed

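The labels and the study's methods describe 1 small RNA library from control cells and 1 from LOC550643 knockdown cells, 48 h after transfection, sequenced on a MiSeq in the methods and a HiSeq in a general protocol label. Reads were mapped to mature miRNAs by in-house software of the authors, who deposited RPM values, 1 table per library. FastQC, cutadapt and the build hg38 are named in the submitters' processing notes, and the aligner and the miRNA release are not given in the sources used here.

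From these tables, values were rescaled to equal totals, a missing miRNA was set to 0, and fold changes used log2(RPM + 1). The value of 1 read was fitted by least squares to values of up to 20 reads within 0.1 read of a whole number. This held for 92.9% of 253 control values and 91.5% of 224 knockdown values, so no count test was run. All 7 products lay on whole reads. Reads were rounded and given 95% Clopper-Pearson intervals. Copies of a molecule made by PCR are not independent, so intervals and floors cover counting error only. The scripts were tested on simulated data.

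The named miRNAs were those with the stems miR-193a, miR-193b, miR-365a, miR-365b or miR-365, and comparison clusters. Also named were the 3 nearest to the product with the highest mean as listed. The miRNAs miR-199a-3p and miR-199b-3p and the miR-200 and miR-222 markers were named after their values were seen. The members, lists and alternatives were chosen with earlier results of these data known. Alternatives covered scaling, pseudocount, filters, the value of 1 read and the interval. Sequences came from RefSeq and, for the LOC550643 isoforms, from the study's supplement. Python 3.11.15, numpy 2.4.6, scipy 1.17.1 and matplotlib 3.10.9 were used.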

Additional observations from a re-analysis of the deposited data

How the results depend on the processing

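No paired analysis was possible because there is only 1 library of each kind. The 25 log2 fold changes of the products with more than 3 reads in a library, computed under 5 alternatives of scaling and pseudocount, all kept their sign and stayed within the counting interval. A pseudocount cannot change such a sign, and the deposited totals were almost equal, so most of these signs were fixed in advance. The values of miR-365a-3p and miR-365b-3p are the same, and the intervals are wide, so no robustness is read from this. Median-of-ratios scaling shifted knockdown to control log2 ratios upward by 0.20 before the pseudocount, and the log2(RPM + 1) fold changes of these products slightly less. The number of products more than 2-fold higher, 2, became 0 with a pseudocount of 10 RPM and 1 among products with at least 10 RPM in a library. The number more than 2-fold lower, 1, became 3 with a pseudocount of 0.1 RPM, where miR-365a-3p and miR-365b-3p passed the threshold, and 0 with a pseudocount of 10 RPM. Over all miRNAs the 76 higher and 116 lower became 19 and 25 with a pseudocount of 10 RPM, 28 and 66 when a miRNA had to be listed in both tables, 34 and 51 with a minimum of 10 RPM in either, and 3 and 7 with a minimum mean of 100 RPM. Within the mean RPM range of the 7 products, a range chosen after seeing the data, they were 35 and 49. With median-of-ratios scaling they were 83 and 90. If the smallest value of each library (0.33 of a read in control cells and 0.40 in knockdown cells) were 1 read, 1 product in place of 3 would be at or under 3 reads in both libraries, and the ratio interval of 1 product in place of 0, that of miR-365a-5p (1.18 to 20.1), would exclude 1. The arm and locus ratios stayed within their counting intervals under each alternative run for them. For ratios with miR-193a-3p, at 0 reads, that interval is open at 1 end, and the value of 1 read does not enter an arm ratio. Among these arm and locus ratios, 3 lost or changed their sign. With products at or under 3 reads set at the floor, the log2 3p to 5p ratio in control cells went from -3.53 to 0 for miR-193a and from 0.54 to 0 for miR-193b. The size of the miR-193a value is set by the pseudocount, because miR-193a-3p had 0 reads. It was -6.74 with a pseudocount of 0.1 RPM and -1.04 with 10 RPM. Median-of-ratios scaling took the log2 fold change of the chromosome 16 sum from -5.4e-05 to 0.20.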
